A study of Homo sapiens with 5 samples.

Results

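The genes described here are 10 transcripts that limit or report signalling through the ERK kinases: the Sprouty genes SPRY1, SPRY2 and SPRY4, the related SPRED1 and SPRED2, the MAP kinase phosphatases DUSP4, DUSP5 and DUSP6, and the ETS factors ETV4 and ETV5. They were chosen by name, as feedback inhibitors and transcriptional readouts of ERK output, with earlier results of these data known. All 10 of them were measured, out of 18417 genes that had a row annotated to 1 symbol. Each had 1 row annotated to it alone, so no choice between such rows was needed, and rows annotated to several symbols were not used for them. RNA came from D54, an established human glioma cell line, seeded from fresh trypsin suspensions and cultured overnight. In 3 samples the cells carried an shRNA against TIP-1, a different one in each, and in 2 samples, which were independent clones, they carried a control shRNA. Every sample had 1 array and there were no technical replicates, so a value for 1 shRNA carries no replicate of its own. The labels do not say whether the cells with TIP-1 shRNA were clones or pools.

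ERK is the last kinase of a relay that runs from growth factor receptors through RAS and RAF. When ERK is active, it drives transcription of its own inhibitors. Sprouty and SPRED proteins act on RAS and RAF at the membrane, and DUSP phosphatases remove the activating phosphates from ERK itself. ETV4 and ETV5 are transcription factors whose genes respond to the same pathway, which is often active in glioma downstream of receptor tyrosine kinases.

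Values are log2 signals as the authors deposited them, and each difference subtracts the control mean from the TIP-1 shRNA mean on that scale. Differences were tested with limma across all 33297 rows with a threshold of 0.05 on the Benjamini-Hochberg adjusted p. Array medians were 7.88 to 7.95 with TIP-1 shRNA and 7.96 to 7.98 with control shRNA, so every TIP-1 shRNA median lay below both control medians, and this offset was left in the values. Over all rows, shRNA 3 stood furthest from the other arrays. Differences between it and each other array had an SD of 0.29 to 0.32, against 0.19 to 0.28 for the remaining pairs. Its limma array weight was the lowest, at 0.40. With 1 array for shRNA 3, an effect of that shRNA and one of that array cannot be told apart. The silenced gene, TAX1BP3, which encodes TIP-1, read 9.81, 9.61 and 9.55 with shRNAs 1, 2 and 3, against 12.05 and 12.10 in controls 1 and 2 (difference -2.42, SE 0.10, limma adjusted p = 0.011). It no longer passed when control 1, control 2 or shRNA 2 was left out, with differences of -2.45, -2.39 and -2.39. A read-through transcript shares this row. Of 11 astroglial and glioma markers, 4 had a mean signal above the median row: VIM, CD44, SOX9 and GFAP. VIM read 13.93 with TIP-1 shRNA and 13.98 with control shRNA, CD44 13.80 and 13.76, and SOX9 10.66 and 10.39 (limma adjusted p = 0.707 for SOX9). GFAP, the defining astrocyte filament, was close to the median row, at 8.02 with TIP-1 shRNA and 8.09 with control shRNA. S100B was below that row, at 6.28 and 6.26, and neither has a detection call. Of 4 leukocyte, 3 endothelial and 2 oligodendrocyte markers, none had a mean above the median row. The leukocyte marker PTPRC varied widely, at 8.39, 7.75 and 6.84 with shRNAs 1, 2 and 3 and 8.65 and 7.32 in controls 1 and 2. With shRNA 1 and in control 1 it was above the array median. Among neuronal and epithelial markers, 2 of 3 and 1 of 3 had a mean above the median row, the epithelial one being the keratin KRT18 (12.75 with TIP-1 shRNA and 12.80 with control shRNA).

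None of the 10 feedback genes passed the test (limma, smallest adjusted p = 0.707), where 1 row of all, TAX1BP3, or 0.003%, was called. At an unadjusted p under 0.05, 2 of the 10 stood out, SPRY2 and DUSP4, both higher with TIP-1 shRNA, against 3.08% of all genes on the higher side and 6.02% in either direction. In 4 of the 10, SPRY2, SPRED2, DUSP4 and DUSP6, all TIP-1 shRNA arrays lay above both controls, against 12.5% of all genes. In 1, ETV5, all lay below, against 14.1% of all genes. Because the members were chosen with earlier results known, the shares set beside them are descriptions and no test. The median difference over the 10 genes was 0.12, against -0.01 over all genes, and 6 genes were higher and 4 lower, near the 47.6% and 52.4% of all genes. That median was 0.01 without control 1, 0.22 without control 2 and 0.18 after each array was centred on its own median. Centring also raised the median of all genes, to 0.05. The members were not of 1 direction, as the plot of signals by array shows.

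**Figure D1:**
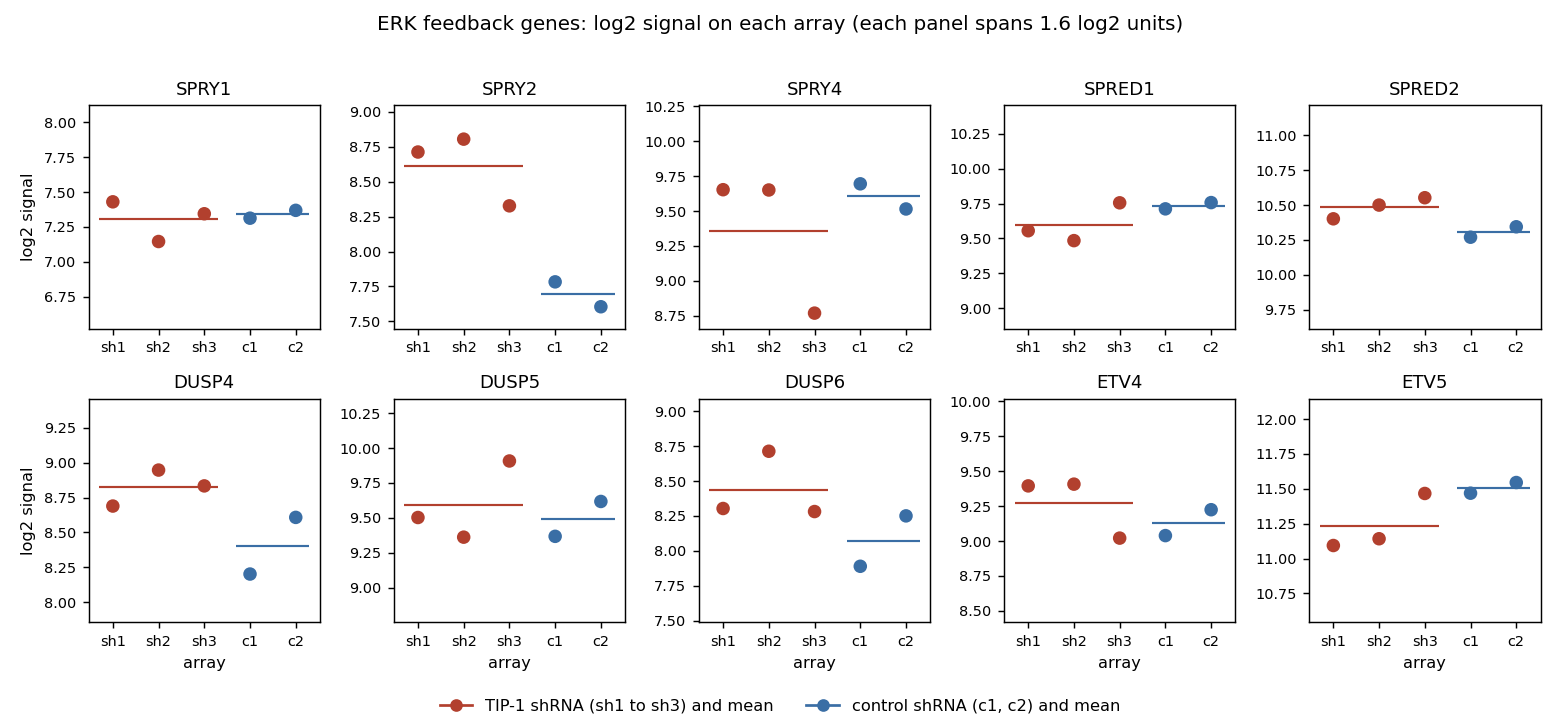
Log2 signal of the 10 ERK feedback genes on each array, with TIP-1 shRNA arrays (sh1 to sh3) in red and control arrays (c1, c2) in blue; horizontal lines are group means, and each panel spans the same 1.6 log2 units around its gene. SPRY2 shows the widest step between groups, with 8.33 as its lowest TIP-1 shRNA value and 7.78 as its highest control value, while SPRY4 departs from the other arrays only in shRNA 3, at 8.77.

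Sprouty proteins are membrane-associated inhibitors induced by receptor tyrosine kinase signalling, and the 3 measured here gave 3 different patterns. SPRY2, which blocks ERK activation by several growth factors, read 8.71, 8.81 and 8.33 with shRNAs 1, 2 and 3, against 7.78 and 7.60 in controls 1 and 2. The groups did not overlap, and the gap of 0.54 between the lowest TIP-1 shRNA array and the highest control was wider than the 0.18 between the controls. The mean was 8.62 ± 0.25 (SD, n = 3) with TIP-1 shRNA and 7.69 ± 0.13 (SD, n = 2) with control shRNA, a difference of 0.92 (SE 0.16, 95% interval 0.53 to 1.31). On the linear scale this is 1.89-fold (interval 1.45 to 2.48), measured against control signals that were below their array medians and carry no detection call. SPRY2 did not pass over all rows (limma adjusted p = 0.707), although its unadjusted p of 0.0011 ranked 42 among the 33297 rows. With 1 array left out the difference was between 0.83 and 1.07. Its sign could not change there, because the groups did not overlap.

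SPRY4, a Sprouty that also restrains RAS and RAF signalling, read 9.65, 9.65 and 8.77 with shRNAs 1, 2 and 3, against 9.70 and 9.51 in the controls. shRNAs 1 and 2 lay between the controls, and shRNA 3 alone was lower, by 0.84 from the control mean. That array also departed most from the others over all rows. The group difference was -0.25 (SE 0.28, interval -0.93 to 0.43, limma adjusted p = 0.829), and it was 0.05 without shRNA 3, -0.40 without shRNA 1, -0.39 without shRNA 2 and -0.16 without control 1. In the shRNA 3 array SPRY2 was 0.63 above its control mean, so the 2 Sprouty genes lay on opposite sides of the controls in the same RNA.

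SPRY1, the family's regulator of kidney and vascular growth factor signals in mice, read 7.43, 7.15 and 7.34 with shRNAs 1, 2 and 3, against 7.31 and 7.37 in the controls. Its TIP-1 shRNA arrays lay on both sides of the controls, with a difference of -0.03 (SE 0.11, interval -0.30 to 0.23, limma adjusted p = 0.945). All of its signals were below their array medians, and with no detection call they could not be told from background.

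Promoter sequences, from RefSeq on build GRCh38.p14, were available for 6 of the 10 genes: SPRY1, SPRY2, SPRY4, SPRED1, SPRED2 and DUSP6, in 10 windows that run from 250 bases before a transcription start to 50 after it. The windows were searched on both strands for the ETS family site CCGGAAGT, the AP-1 site TGANTCA and the CRE TGACGTCA, which are held by 4.14%, 7.71% and 1.85% of all 35116 windows of that length. The ETS and CRE letters were in none of the 10 windows. The AP-1 letters occurred only in the downstream SPRED2 window (chr2:65366729-65367028, minus strand), as tgactca beginning 6 bases before the start and as tgaatca beginning at base 35 of the transcript. The shorter ETS core CCGGAA, added after the windows had been read and contained within the longer ETS site, is held by 17.2% of windows, and it occurred in the upstream SPRY2 window and in 1 SPRY1 window. The 250 bases before the start are shown for 3 genes whose TIP-1 shRNA arrays all lay above both controls, SPRY2 (chr13:80341127-80341376, minus strand), SPRED2 (chr2:65432600-65432849, minus strand) and DUSP6 (chr12:89352502-89352751, minus strand), and for SPRY4 (chr5:142324248-142324497, minus strand), a Sprouty gene for which they did not. They are written 5′ to 3′ on the gene's strand, and capitals mark the ETS core.
SPRY2: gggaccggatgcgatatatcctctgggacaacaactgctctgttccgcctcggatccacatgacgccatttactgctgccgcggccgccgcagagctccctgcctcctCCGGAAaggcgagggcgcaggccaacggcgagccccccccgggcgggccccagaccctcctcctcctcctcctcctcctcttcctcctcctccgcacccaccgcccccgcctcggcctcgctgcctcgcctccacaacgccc
SPRED2: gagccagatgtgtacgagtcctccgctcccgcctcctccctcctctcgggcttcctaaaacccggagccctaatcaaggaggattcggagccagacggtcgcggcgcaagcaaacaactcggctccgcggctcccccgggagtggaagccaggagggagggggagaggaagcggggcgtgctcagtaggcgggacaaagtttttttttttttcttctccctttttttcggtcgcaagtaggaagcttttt
DUSP6: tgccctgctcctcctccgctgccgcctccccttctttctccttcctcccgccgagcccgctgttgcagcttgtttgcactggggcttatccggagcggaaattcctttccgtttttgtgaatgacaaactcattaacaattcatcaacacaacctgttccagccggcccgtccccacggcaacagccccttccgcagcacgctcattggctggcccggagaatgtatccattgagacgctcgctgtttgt
SPRY4: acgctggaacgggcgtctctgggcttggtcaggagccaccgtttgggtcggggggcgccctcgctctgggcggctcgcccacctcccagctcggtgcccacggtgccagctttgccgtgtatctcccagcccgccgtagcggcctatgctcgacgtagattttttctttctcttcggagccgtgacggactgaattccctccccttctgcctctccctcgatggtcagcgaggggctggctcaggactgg
SPRY2 thus carries the core once in this window, beginning 142 bases before the start, and the other 3 sequences do not contain these letters. No binding was measured in this series, so a match is a description of the letters only.

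SPRED proteins carry the Sprouty-like cysteine-rich domain and recruit the RAS inactivator neurofibromin to the membrane. SPRED2 read 10.40, 10.50 and 10.55 with shRNAs 1, 2 and 3, against 10.27 and 10.34 in the controls. All TIP-1 shRNA arrays were above both controls, but by only 0.06 at the nearest point, and the difference of 0.18 (SE 0.09, interval -0.04 to 0.39) did not pass (limma adjusted p = 0.713). SPRED1, the gene mutated in Legius syndrome, read 9.56, 9.48 and 9.76 with shRNAs 1, 2 and 3, against 9.71 and 9.76 in the controls. shRNAs 1 and 2 were below both controls and shRNA 3 lay between them. Its difference was -0.14 (SE 0.11, interval -0.40 to 0.12, limma adjusted p = 0.765), and it was -0.21 without shRNA 3, -0.08 without shRNA 2 and -0.08 with median centring. The pair therefore had opposite signs, with neither past the test.

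The DUSP genes encode phosphatases of ERK that differ in where they act: DUSP6 in the cytoplasm, DUSP4 and DUSP5 in the nucleus. DUSP4 read 8.69, 8.95 and 8.83 with shRNAs 1, 2 and 3, against 8.20 and 8.61 in the controls. The groups were separate by 0.08, and the controls differed between themselves by 0.41, nearly as much as the difference of 0.42 between groups (SE 0.15, interval 0.06 to 0.78, 1.34-fold). It did not pass over all rows (limma adjusted p = 0.707, unadjusted p = 0.028). DUSP4 was 0.22 higher without control 1 and 0.62 higher without control 2.

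DUSP6, the phosphatase most often read as a gauge of ERK output, gave 8.30, 8.71 and 8.28 with shRNAs 1, 2 and 3, against 7.89 and 8.25 in the controls. shRNA 2 was the highest array, while shRNAs 1 and 3 were within 0.05 and 0.03 of control 2. The difference was 0.36 (SE 0.18, interval -0.06 to 0.79, limma adjusted p = 0.712). It was 0.18 without control 1, 0.22 without shRNA 2 and 0.54 without control 2. DUSP5, a nuclear phosphatase that also anchors ERK, read 9.50, 9.36 and 9.91 with shRNAs 1, 2 and 3, against 9.37 and 9.62 in the controls. Only shRNA 3 was above both controls, and the difference of 0.10 (SE 0.18, interval -0.34 to 0.53, limma adjusted p = 0.897) was -0.06 without shRNA 3. It was -0.03 without control 1, 0.22 without control 2 and 0.21 without shRNA 2.

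ETV4 and ETV5 belong to the PEA3 group of ETS factors, which switch on growth and motility genes. ETV5 read 11.09, 11.14 and 11.47 with shRNAs 1, 2 and 3, against 11.47 and 11.54 in the controls. shRNAs 1 and 2 were below both controls, while shRNA 3 was below control 1 by 0.002, too little to order the 2 arrays. The difference was -0.27 (SE 0.13, interval -0.59 to 0.05, limma adjusted p = 0.712), and after each array was centred on its median ETV5 no longer had all TIP-1 shRNA arrays below both controls. ETV4 read 9.40, 9.41 and 9.02 with shRNAs 1, 2 and 3, against 9.04 and 9.22 in the controls. shRNAs 1 and 2 were above both controls and shRNA 3 was below both. The difference of 0.14 (SE 0.15, interval -0.21 to 0.50, limma adjusted p = 0.811) was 0.27 without shRNA 3, 0.05 without control 1 and 0.24 without control 2. It was 0.08 without shRNA 1 or shRNA 2. With shRNAs 1 and 2, ETV4 and ETV5 thus lay on opposite sides of the controls.

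**Figure D2:**
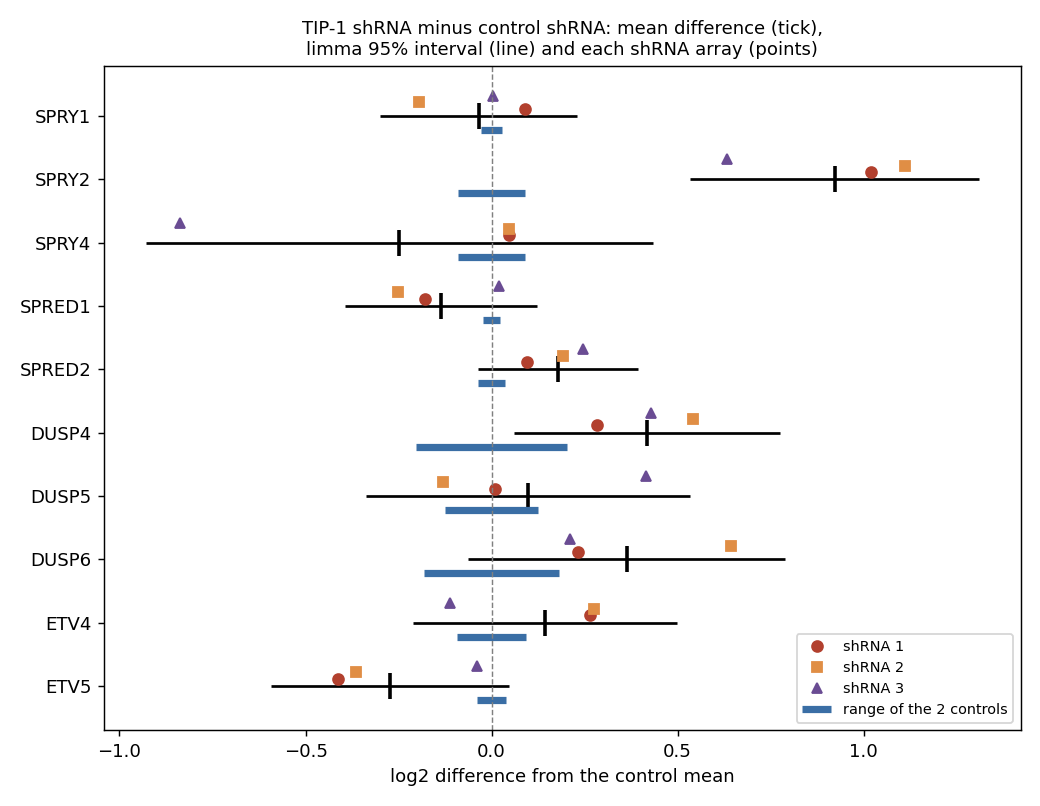
Log2 difference of each feedback gene from its control mean: the black tick is the mean over the TIP-1 shRNA arrays, the black line limma's 95% interval, the points the single shRNA arrays, and the blue bar the range of the 2 controls. The intervals of SPRY2 (0.53 to 1.31) and DUSP4 (0.06 to 0.78) leave out 0, and those of the other 8 genes hold it.

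The 3 shRNAs were compared with the same controls, so only the values of each are given, side by side. With shRNA 1, 6 of the 10 genes were above both controls and 2 below, against 32.2% and 31.2% of all genes. With shRNA 2, 5 were above and 4 below, against 30.8% and 37.7% of all genes. With shRNA 3, 5 were above and 3 below, against 35.5% and 41.9% of all genes. Median differences from the control mean were 0.09, 0.12 and 0.12 with shRNAs 1, 2 and 3. For 3 of the 10 genes, SPRY4, SPRED1 and ETV4, shRNA 3 lay on the other side of the control mean from shRNAs 1 and 2, against 24.6% of all genes, which is close to the share among genes in general. The range over the TIP-1 shRNA arrays exceeded the group difference for 7 of the 10, against 78.2% of all genes, which is also close. The gap between the controls exceeded it for 3 of the 10, SPRY1, DUSP5 and ETV4, against 57.2% of all genes. A difference of at least 0.5 in size occurred in SPRY2 alone, 1 of 10, against 1.34% of all genes in either direction and 0.771% on the higher side.

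**Figure D3:**
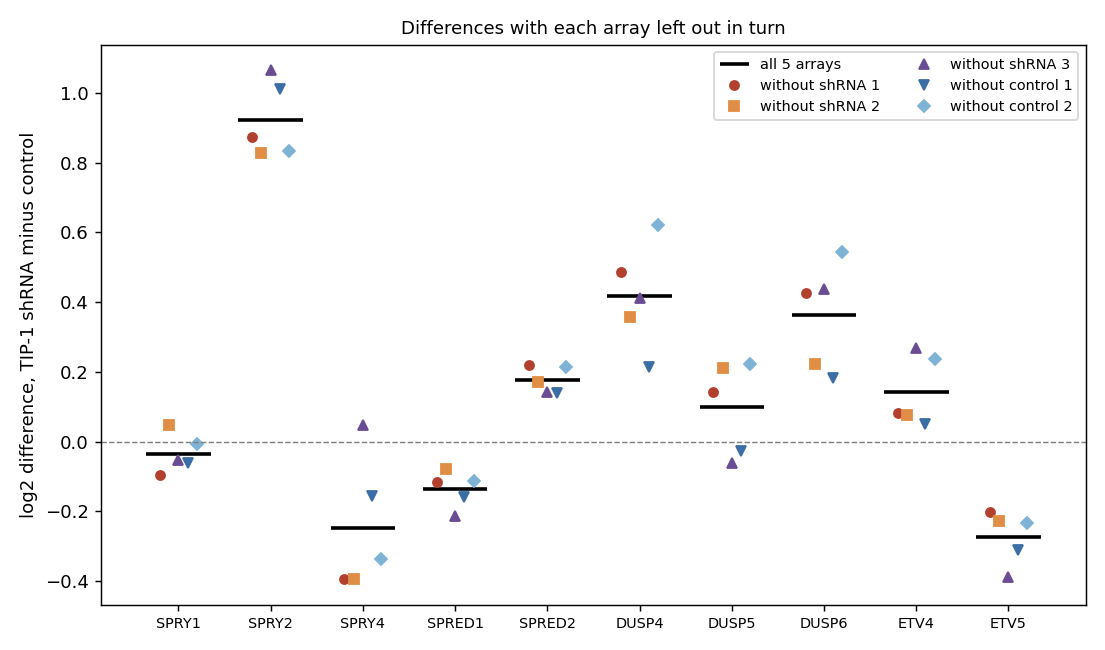
Log2 difference between TIP-1 shRNA and control shRNA for each feedback gene with all arrays (black bars) and with 1 array left out (coloured points). SPRY2 spans 0.83 to 1.07, DUSP4 spans 0.22 to 0.62 and DUSP6 spans 0.18 to 0.54 with the controls as the end points, and SPRY4 turns from -0.25 to 0.05 without shRNA 3.

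The genes whose pattern over the 5 arrays was nearest to that of SPRY2, by distance between mean-centred log2 signals, were LRCH2, KCNH1 and UNC5C (distances 0.19, 0.26 and 0.28). LRCH2 is a leucine-rich repeat protein, and its difference was 0.84 (SE 0.13), but its signals of 5.23 to 6.31 were below the lower quartile of every array and carry no detection call. KCNH1 is a voltage-gated potassium channel, with 0.78 (SE 0.15), and UNC5C is a receptor for the guidance cue netrin, with 0.72 (SE 0.17). They were picked for their likeness over these same arrays, and none passed the test (limma adjusted p = 0.707 each).

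Other genes of the pathway were read from 5 lists, and no measured gene of any list passed over all rows (limma, smallest adjusted p = 0.707). The relatives of the feedback genes, which are further Sprouty, SPRED, DUSP and ETS genes and other RAS or receptor inhibitors, had a median difference of 0.00 over 16 measured genes of 18 listed. All TIP-1 shRNA arrays lay above both controls for 1 of them and below for 0, against 12.5% and 14.1% of all genes, and none reached an unadjusted p under 0.05 in limma. The 4 with the smallest p were IL17RD, an inhibitor of FGF signalling to ERK (-0.42, SE 0.20), the ETS repressor ERF (0.13, SE 0.08), the phosphatase DUSP9 (-0.16, SE 0.12) and SPRY3 (-0.12, SE 0.10). IL17RD read 7.99, 7.94 and 8.35 with shRNAs 1, 2 and 3, against 8.24 and 8.78 in the controls, so shRNA 3 lay between them.

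ERK-responsive genes, 22 measured of 25 listed, had a median difference of 0.01, which was -0.03 without control 1, -0.01 without shRNA 1 and 0.07 without control 2. In 6 genes all TIP-1 shRNA arrays lay above both controls and in 3 below, against 12.5% and 14.1% of all genes. FOSB was above by only 0.003 and EREG below by only 0.004, too little to order the arrays. All EREG signals were below their array medians, without a detection call. The 4 leading genes of the list were the cytokine LIF (0.60, SE 0.12), the AP-1 subunit JUNB (0.29, SE 0.09), PHLDA1 (0.30, SE 0.10) and IER5 (-0.25, SE 0.09). At an unadjusted p under 0.05, 3 were higher and 1 lower, against 3.08% and 2.94% of all genes. PHLDA1, often counted with the feedback genes as a readout of ERK output, read 10.76, 10.63 and 10.87 with shRNAs 1, 2 and 3, against 10.46 and 10.44 in the controls. All its TIP-1 shRNA arrays were thus above both controls.

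The core cascade, 18 measured of 24 listed, had a median of 0.05. With median centring, which also raised the median of all genes to 0.05, the cascade median was 0.11, and with quantile normalization 0.02. All TIP-1 shRNA arrays lay above both controls for 7 of its genes and below for 2, against the same 12.5% and 14.1%. Its leading genes were RPS6KA2 (1.94, SE 0.36) and RPS6KA1 (0.38, SE 0.11), 2 RSK kinases that ERK activates, the scaffold KSR2 (-0.20, SE 0.10) and HRAS (0.16, SE 0.09). RPS6KA2 read 10.81, 11.23 and 9.91 with shRNAs 1, 2 and 3, against 8.75 and 8.68 in the controls, with shRNA 3 the lowest of the TIP-1 shRNA arrays, as for SPRY2.

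Growth factor receptors, 15 measured of 15, had a median of -0.04, which was -0.13 without control 1 and 0.06 without control 2. In 2 of them all TIP-1 shRNA arrays lay above both controls and in 4 below, against 12.5% and 14.1% of all genes. FGFR1 was above by only 0.005 and KDR below by only 0.003. The 4 with the smallest p were the hepatocyte growth factor receptor MET (-0.26, SE 0.08), IGF1R (0.31, SE 0.17), PDGFRB (0.50, SE 0.30) and KDR (-0.21, SE 0.13). PDGFRB was 9.71 with shRNA 3, against 8.67 and 8.85 with shRNAs 1 and 2 and 8.59 and 8.56 in the controls. The list of FGF ligands, 7 measured of 7, also held FGF13 (0.09, SE 0.10), a family member that acts inside the cell. The list had a median of -0.05, which was 0.08 without shRNA 3 and -0.11 without shRNA 1, shRNA 2 or control 1. It was -0.02 without control 2. All TIP-1 shRNA arrays lay above both controls for 1 of the ligands and below for 2, against 12.5% and 14.1% of all genes. FGF1 led the ligands (-0.58, SE 0.17) at 8.15, 8.23 and 7.81 with shRNAs 1, 2 and 3, against 8.46 and 8.83 in the controls. FGF18 (-0.22, SE 0.11), FGF7 (0.19, SE 0.10) and FGF9 (-0.16, SE 0.10) followed. FGF7 was the 1 ligand above both controls, and FGF9 was 1 of the 2 below, by only 0.003. FGF7 read 5.33 to 5.71 and FGF9 4.95 to 5.26, below the lower quartile of every array and without a detection call. Among the other genes named from these lists, SPRY3, KSR2 and KDR had all signals below their array medians, without a detection call. So did PDGFRA, 1 of the 4 receptors below both controls. The listed genes without a row of their own were not analysed here.

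**Figure D4:**
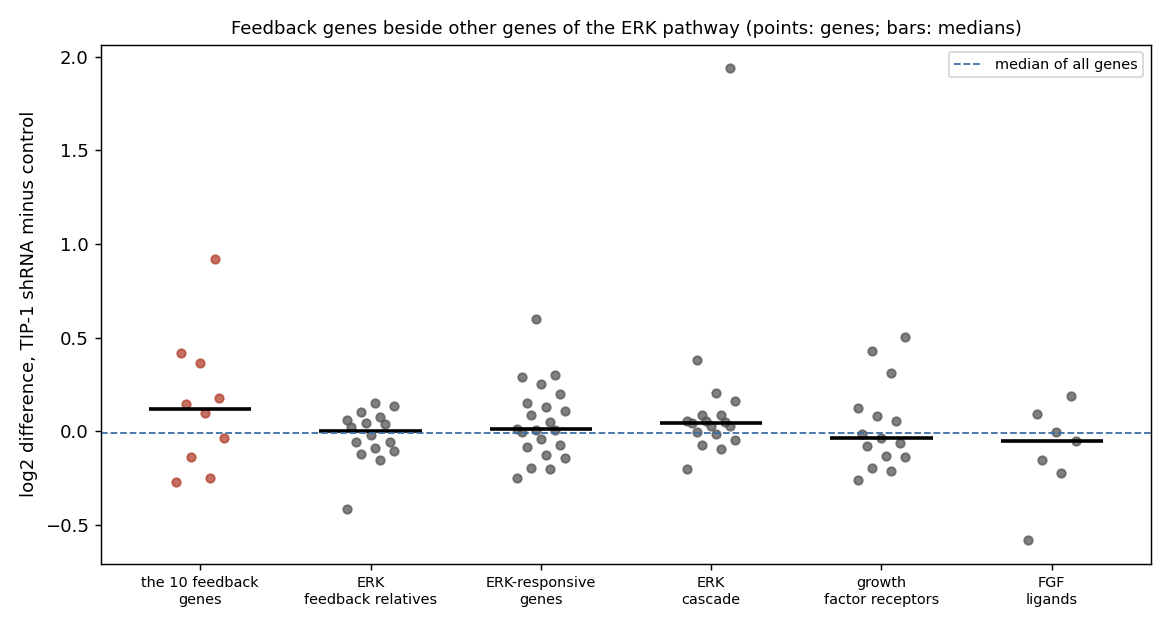
Log2 differences, TIP-1 shRNA minus control, of the 10 feedback genes (red) and of the genes of 5 other ERK pathway lists (grey), with list medians as black bars and the median of all genes as a dashed line. The feedback genes have a median of 0.12 and the other lists lie between -0.05 and 0.05, and the highest single point is RPS6KA2 at 1.94.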

How the data were processed

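The deposited table gives 1 log2 signal per row and array. Per the labels' design text, the authors used the Affymetrix Exon Array Computational Tool, with version and steps not given in the sources used here. That text speaks of an exon array, whereas the row identifiers matched the gene-level platform, so no exon was compared. Values were used as deposited, without a detection call, and the number of arrays limits the precision.

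Rows with 1 symbol were named from the platform annotation (19460 of 33297 rows), and the brightest stood for each of 18417 genes. Differences were fitted with limma 3.58.1 in R 4.3.3 (lmFit, eBayes, two-sided, Benjamini-Hochberg over all rows) on all 5 arrays without covariates. The calculation was checked on simulated data, drawn from limma's own fitted spread and with equal spread on every array. That check cannot show whether the model suits these arrays. With 2 arrays against 3, an exact permutation test cannot go below 0.1, so none was used. Replicates are clones (controls) or different shRNAs, so p-values measure the spread between those. In bulk RNA, fewer cells with a transcript and less of it per cell cannot be told apart.

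The members and lists were chosen with earlier results of these data known. The 10 members and TAX1BP3 were named, with the 4 genes of smallest unadjusted p in each pathway list and the 3 genes nearest to any member that differed by at least 0.5. PHLDA1, IL17RD, PDGFRB, FGF1 and RPS6KA2 were singled out for values by array after these were seen. Alternatives were quantile normalization, median centring, bright rows, a trended robust fit, array weights, a replicate block, the mean of a gene's rows and each array left out.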

Additional observations from a re-analysis of the deposited data

How the results depend on the processing

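No feedback gene became a call under any of the 12 alternatives (smallest limma adjusted p 0.0966, for SPRY2 with the replicate block). The trended robust fit, bright rows and the mean of a gene's rows leave a member's difference as it is, and the block repeats the value without shRNA 3. Under the other 8 alternatives, 73 of 80 values kept the sign and 7 changed it, all in SPRY1, SPRY4 and DUSP5. Part of this was fixed in advance. Leaving out an array could not change the sign of SPRY2, SPRED2, DUSP4, DUSP6 or ETV5, whose groups did not overlap. Median centring raised every difference alike, so it could not turn a gene that was higher. The count of kept signs therefore overstates how stable the members were. SPRY1 was 0.0369 with quantile normalization, 0.0269 with median centring and -0.0958 to 0.0463 with 1 array left out. DUSP5 was -0.0430 with array weights, -0.0604 with the replicate block and -0.0604 to 0.223 with 1 array left out. SPRY4 was 0.0469 with the block and -0.395 to 0.0469 with 1 array left out. With the block, shRNA 3 has no partner and does not enter the difference. Deviations from the group means correlated at 0.0486 between the arrays numbered 1 and at -0.0529 between those numbered 2. The deviations of 2 controls mirror each other, so these are not separate checks and cannot settle whether the numbers mark pairs. The samples were treated as unpaired because the labels give 2 groups only. The number of called rows, 1 as deposited, was 2 with array weights, 15 with the block and 0 to 6 with 1 array left out (0 without control 1, control 2 or shRNA 2, and 6 without shRNA 3). With quantile normalization and with median centring, which alone could undo a separation, SPRY2, SPRED2, DUSP4 and DUSP6 still had all TIP-1 shRNA arrays above the controls. ETV4 joined them without shRNA 3. The number with all below, 1 as deposited, was 2 with quantile normalization (SPRED1 added), 0 with median centring and 1 to 2 with 1 array left out. No share of all genes is given for these alternative counts, and a separation is easier with fewer arrays. The members' median was 0.182 with median centring, which put the median of all genes at 0.0524, 0.0679 with array weights and 0.0116 to 0.219 with 1 array left out. The cascade's median was 0.0173 with quantile normalization, 0.106 with centring and 0.0333 to 0.0585 with 1 array left out. That of the feedback relatives was -0.0209 with quantile normalization, 0.0628 with centring, 0.0213 with bright rows, -0.0436 with weights, -0.0416 with the block and -0.0416 to -0.00458 with 1 array left out. That of ERK-responsive genes was 0.0706 with centring and -0.0288 to 0.0691 with 1 array left out. That of the receptors was 0.0249 with quantile normalization, 0.0229 with centring, 0.0802 with bright rows, -0.00354 with the block and -0.127 to 0.0584 with 1 array left out. That of the FGF ligands was 0.00873 with centring, 0.0402 with weights, 0.0832 with the block, -0.137 with bright rows and -0.114 to 0.0832 with 1 array left out. Centring raised the difference of every row by the same amount, and the block repeats the fit without shRNA 3. Bright rows changed only which genes entered a median. The cause of the other shifts was not tested. SPRY1 has no value with bright rows only, since its mean was below the median row.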
